A study of Homo sapiens with 9 samples.

Results

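The expression of 10 genes of the liver X receptor (LXR) pathway and of cholesterol efflux and storage was examined in SKMEL28 cells, a human melanoma cell line. The members were taken by gene symbol from the count and FPKM tables: the receptors NR1H2 and NR1H3, the efflux genes ABCA1, ABCG1 and APOE, the LDL receptor brake MYLIP, the phospholipid enzyme LPCAT3, the sterol carriers NPC2 and STARD4, and the storage enzyme SOAT1. All 10 had a row among the 48162 genes of both tables, and 8 of the 10 passed the filter on low counts that left 15776 genes to test. The study asked how knockdown of the tumor suppressor p16 and of the DNA damage kinase ATR changes gene expression, in work on cholesterol and mTORC1. Total RNA was sequenced from 3 groups of 3 libraries. The cells of every group were grown in DMEM with 5% FBS, infected with lentivirus and selected with puromycin at 1 ug/ml for 3 days. Cells labelled shCont carried a hairpin against GFP, which these cells do not encode. Cells labelled shp16 carried a hairpin against p16, and cells labelled shp16/shATR carried that hairpin together with a hairpin against ATR, so the ATR hairpin was present only on a p16 knockdown background. The study calls its RNA measurement 1 experiment with technical replicates, and p-values below therefore measure the spread between these libraries and not between separate infections.

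LXRs are nuclear receptors that are activated by oxysterols, the oxidized derivatives of cholesterol. Bound to DNA with a retinoid X receptor, they turn on genes that move cholesterol out of the cell (ABCA1, ABCG1, APOE), that mark the LDL receptor for degradation (MYLIP) and that place polyunsaturated chains in membrane phospholipids (LPCAT3). Cholesterol that is not exported is carried between membranes by proteins such as NPC2 in the lysosome and STARD4 in the cytosol, or is esterified by SOAT1 for storage in lipid droplets.

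Promoter sequences are shown for ABCA1, the classic LXR target, and for SOAT1 and STARD4, the members that passed the test in at least 1 comparison. They are the 250 bases before the start site in RefSeq on GRCh38.p14, read 5′ to 3′ on the strand of the gene, from chr9:104928156-104928405 (minus strand) for ABCA1, chr1:179293547-179293796 (plus strand) for SOAT1 and chr5:111512536-111512785 (minus strand) for STARD4. Capitals mark the LXR-type repeat in ABCA1 and the CCAAT boxes in the others.
ABCA1: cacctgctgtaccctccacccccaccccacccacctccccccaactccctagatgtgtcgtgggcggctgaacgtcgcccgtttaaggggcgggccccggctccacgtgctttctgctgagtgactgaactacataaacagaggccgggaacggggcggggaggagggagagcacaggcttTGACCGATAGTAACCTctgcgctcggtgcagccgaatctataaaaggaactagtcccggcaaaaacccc
SOAT1: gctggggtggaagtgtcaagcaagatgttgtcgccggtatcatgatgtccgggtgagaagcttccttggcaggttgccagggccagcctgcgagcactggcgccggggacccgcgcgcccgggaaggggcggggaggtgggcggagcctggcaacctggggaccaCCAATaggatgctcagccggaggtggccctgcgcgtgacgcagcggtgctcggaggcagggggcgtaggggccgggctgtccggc
STARD4: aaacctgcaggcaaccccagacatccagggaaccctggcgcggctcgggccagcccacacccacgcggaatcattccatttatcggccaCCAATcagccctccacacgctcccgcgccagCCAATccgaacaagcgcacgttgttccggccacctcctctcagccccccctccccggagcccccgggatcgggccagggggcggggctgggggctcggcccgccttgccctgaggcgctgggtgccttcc
RefSeq gave a promoter for 9 of the 10 members, 15 promoters in all, and each was searched on both strands. The LXR element is a direct repeat of AGGTCA with 4 bases between the copies. No member held it with both copies perfect, as did 0.0142% of 35116 promoters. A relaxed spelling, AGGTNA followed 4 bases later by NGGTCA, was written after the ABCA1 promoter was seen. It was found in ABCA1 alone of the members, on the opposite strand 69 bases before the start site, and in 0.0797% of all promoters. TCACNCCAC, a sterol regulatory element, was in none of the members and in 0.883% of all promoters. CCAAT was in 8 of the 15 member promoters, from 7 members, and in 32.0% of all promoters. GGGCGG, the GC box, was in 11 of the 15, from 9 members, and in 42.6% of all promoters. These matches describe letters in a window and say nothing of binding.

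Libraries held between 17314662 and 23588174 counts. Replicate 1 of shCont and replicate 1 of shp16 stood apart from the other libraries of their groups: 402 genes (2.55%) in shCont 1 and 120 genes (0.761%) in shp16 1 differed 2-fold or more from the mean of the other libraries of the group, against 2 to 13 genes in each of the other 7 libraries. Results that rest on these libraries are given with and without them. The background for calls made without both was 32.7% of 16104 genes tested for shp16 over shCont, 26.7% for shp16/shATR over shp16 and 44.3% for shp16/shATR over shCont. CDKN2A, which encodes p16, had 162, 113 and 103 CPM (counts scaled to library size by TMM) in shCont 1 to 3 and 78.1, 93.5 and 99.9 CPM in shp16 1 to 3, a log2 fold change of −0.48 (adjusted p = 0.0723 in edgeR's quasi-likelihood test with Benjamini-Hochberg adjustment). Without the replicate 1 libraries it was −0.16 (adjusted p = 0.0817, same test), so the difference in CDKN2A between shp16 and shCont did not pass either way. In shp16/shATR over shCont, CDKN2A was lower with all libraries (−0.57, adjusted p = 0.0263) and without the replicate 1 libraries (−0.35, adjusted p = 0.000128, same test). Between shp16/shATR and shp16, the CDKN2A values overlapped with all libraries (p = 0.6 in an exact permutation test of group means). Without the replicate 1 libraries the log2 fold change was −0.19 (adjusted p = 0.0281, edgeR's quasi-likelihood test with Benjamini-Hochberg adjustment). ATR had 93.5, 83.4 and 85.6 CPM in shp16 1 to 3 and 39.9, 40.0 and 41.0 CPM in the shp16/shATR libraries (log2 fold change −1.12, adjusted p = 0.0128, same test), and the log2 fold change was −1.07 without the replicate 1 libraries. All 8 markers of the melanocyte lineage were detected in every library, and their sum was 13386 to 15002 CPM for the shCont libraries, 7769 to 13015 CPM for shp16, lowest in shp16 1, and 10941 to 13044 CPM for shp16/shATR. TYRP1 fell in all 3 comparisons, by 1.31 on the log2 scale in shp16/shATR against shCont, and S100B fell by 0.68 in shp16 and rose by 0.67 in shp16/shATR over shp16. Without the replicate 1 libraries S100B was at −0.39 in shp16 over shCont and 0.57 in shp16/shATR over shp16. Of 7 macrophage markers, which would accompany APOE and ABCA1 from macrophages, PTPRC, CD163 and TYROBP were at 0 in all 9 libraries and the 7 summed to between 0.461 and 1.35 CPM. Of the other marker lists, the fibroblast genes summed to 27.2 to 46.3 CPM, most of it LUM, the endothelial genes to 2.75 to 5.61 CPM, and the hepatocyte genes to 0.350 to 3.84 CPM, with SERPINA1 the largest part in both knockdown groups. COL1A2 (log2 fold change 2.55) and DCN (2.14), each under 1.1 CPM in every library, rose in shp16/shATR over shCont, and SERPINA1 rose over shCont in shp16 (3.13) and in shp16/shATR (3.96). Without the replicate 1 libraries COL1A2 and DCN were at 6.78 and 1.79 in shp16/shATR over shCont. COL1A2 and DCN also passed in shp16 over shCont without those libraries, at 6.88 and 1.77. The part of these marker changes in the members' values was not tested. In bulk RNA, fewer cells that express a gene and less RNA per cell cannot be told apart.

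Levels per gene length (FPKM) spanned more than 4 orders of magnitude among the members. APOE was the most abundant, with a mean of 173 FPKM over the 9 libraries, above 98.4% of the genes tested. It was followed by NPC2 at 78.3 FPKM and NR1H2 at 54.9 FPKM. SOAT1, STARD4, MYLIP and LPCAT3 lay between 21.3 and 9.27 FPKM, and NR1H3 was at 2.98 FPKM. ABCA1 and ABCG1 were at 0.0127 and 0.00311 FPKM. The order within the middle of the list depended on the group. In shCont, MYLIP at 13.5 ± 2.74 FPKM, STARD4 at 13.8 ± 4.15 FPKM and SOAT1 at 15.03 ± 2.86 FPKM (mean ± SD, n = 3) overlapped library by library. In shp16/shATR the same genes stood at 15.1 ± 0.555, 20.4 ± 1.69 and 30.6 ± 0.656 FPKM without overlap. APOE and NPC2 had the widest spread, and in shp16 their ranges of 33.4 to 159 FPKM and 32.6 to 83.1 FPKM overlapped each other and that of NR1H2.

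**Figure D1:**
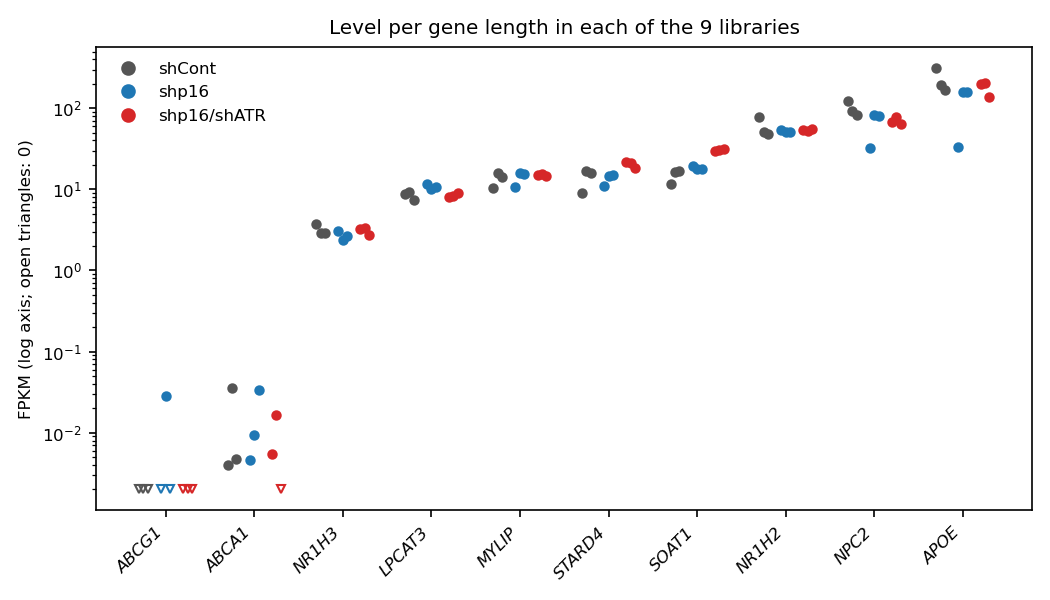
FPKM of each member on a log axis, 1 point for each of the 9 libraries, colored by group and ordered by the mean level, with open triangles at the bottom for libraries at 0. ABCA1 and ABCG1 lie at 0.0356 FPKM or below in every library, while the other 8 members lie between 2.37 and 313 FPKM.

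None of the 8 tested members passed the test between shp16 and shCont by edgeR's quasi-likelihood test or by DESeq2, where 14.8% of all genes tested passed by edgeR and 7.23% passed as higher in shp16. At an unadjusted p under 0.05 there were 4 of the 8 members and 29.8% of all genes tested, and 4 members, SOAT1, LPCAT3, APOE and NPC2, had groups that did not overlap, as did 33.6% of all genes tested. Their log2 fold changes had a median of −0.10, against −0.02 over all genes tested. With the ATR hairpin added, SOAT1 was the 1 member of 8 to pass between shp16/shATR and shp16 (6.22% of all genes tested passed, 2.73% as higher), and groups did not overlap for SOAT1, STARD4 and LPCAT3 (37.7% of all genes tested). The median was 0.15 against 0.0021 over all genes tested, with 7 members at positive values, or 5 without the replicate 1 libraries. It went up to 0.25 without shp16 2. Between shp16/shATR and shCont, 2 members passed, SOAT1 and STARD4, both higher (23.6% of all genes tested passed, 10.9% as higher). Groups did not overlap for SOAT1, STARD4 and NPC2 (41.5% of all genes tested), and the median was −0.03 against −0.02. The comparisons share libraries with each other. With 3 libraries in each group an exact permutation test cannot give a p below 0.1.

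**Figure D2:**
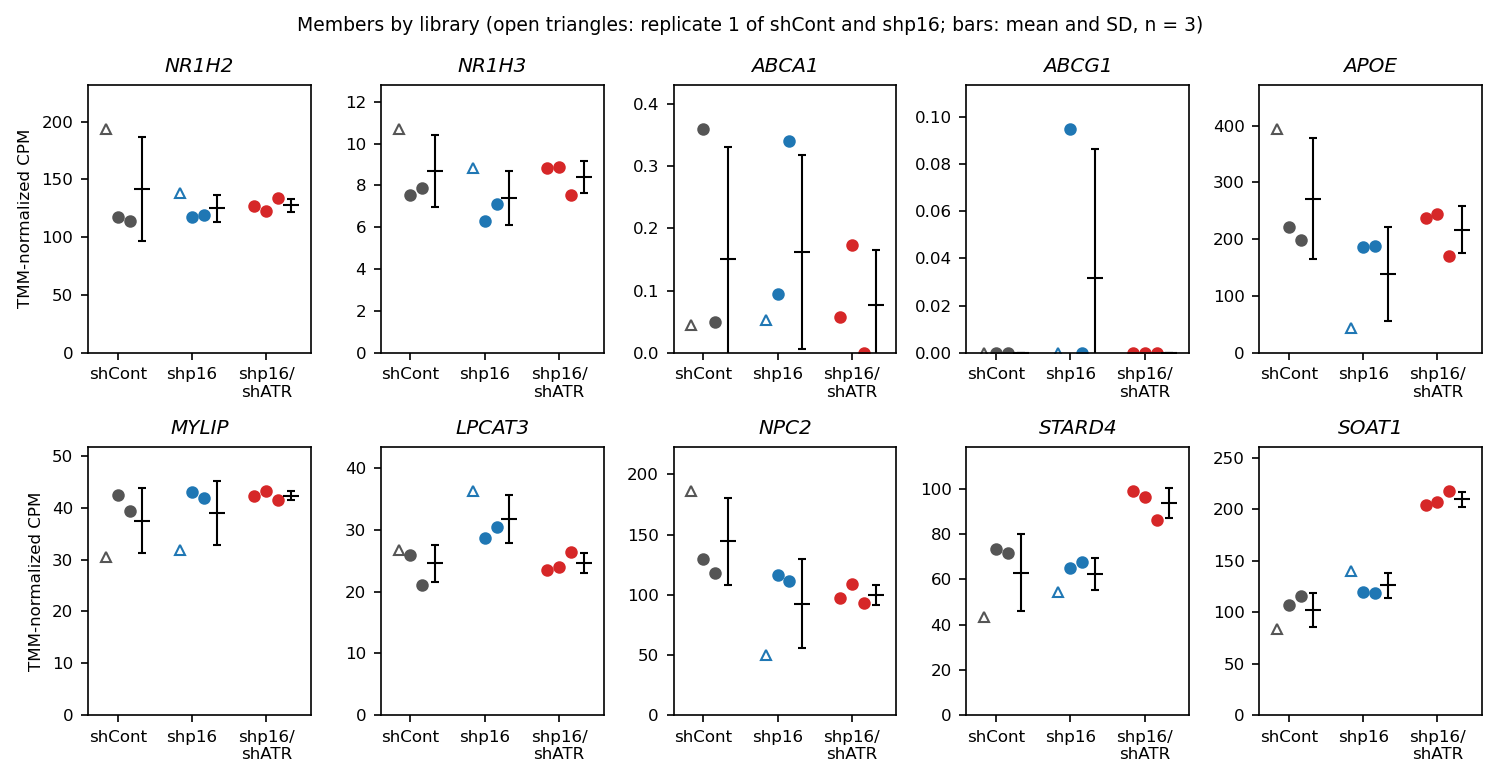
TMM-normalized CPM of the 10 members in each library of shCont, shp16 and shp16/shATR, with the mean and SD (n = 3) to the right of each group and open triangles for replicate 1 of shCont and shp16. SOAT1 lies between 204 and 217 CPM in shp16/shATR and at 140 CPM or below elsewhere, while replicate 1 of shCont and of shp16 are the extremes for APOE and NPC2.

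SOAT1, the enzyme of the endoplasmic reticulum that esterifies cholesterol for storage, had the largest difference among the members that passed. Its gene lies at chr1:179262925-179327815 on the plus strand in the deposited coordinates (GRCh37). It had 83.8, 107 and 116 CPM in shCont 1 to 3, 140, 120 and 119 CPM in shp16 1 to 3, and 204, 207 and 217 CPM in the shp16/shATR libraries a to c. All shp16/shATR libraries were above all others, and the groups did not overlap in any comparison. SOAT1 rose by a log2 fold change of 0.73 ± 0.129 (SE) in shp16/shATR over shp16 (adjusted p = 0.00734) and by 1.04 ± 0.130 over shCont (adjusted p = 0.000204, edgeR's quasi-likelihood test with Benjamini-Hochberg adjustment in each case). It passed in both comparisons in all 20 alternatives tried, with log2 fold changes of 0.69 to 0.81 and of 0.90 to 1.13. Between shp16 and shCont its log2 fold change was 0.30 ± 0.129 (adjusted p = 0.138, same test), and without replicate 1 of shCont and shp16 it was 0.10 (95% interval −0.03 to 0.22).

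STARD4, a soluble carrier that moves cholesterol between the plasma membrane and the endoplasmic reticulum, was likewise highest in shp16/shATR. Its gene lies at chr5:110831731-110848288 on the minus strand (GRCh37). It had 43.2, 73.7 and 71.7 CPM in shCont 1 to 3, 54.3, 65.0 and 67.7 CPM in shp16 1 to 3, and 98.9, 96.5 and 86.5 CPM in shp16/shATR a to c. The shp16/shATR libraries were again above all others, whereas shCont and shp16 overlapped, and replicate 1 was the lowest library in both. STARD4 rose by 0.58 ± 0.180 on the log2 scale in shp16/shATR over shCont (adjusted p = 0.0367, edgeR's quasi-likelihood test with Benjamini-Hochberg adjustment). This call was less stable than that of SOAT1, as it held in 9 of 20 alternatives, with log2 fold changes of 0.36 to 0.71, and was lost when any 1 of shp16 2, shp16 3 or the shp16/shATR libraries was left out. Over shp16 the difference was of the same size, 0.59 ± 0.180, but missed the threshold (adjusted p = 0.0787, same test). Without shCont 1 alone it was 0.59 and passed (adjusted p = 0.000475, same test), and without replicate 1 of both shCont and shp16 it was 0.50 ± 0.0648 and passed (adjusted p = 1.22e-05, same test). Between shp16 and shCont the log2 fold change was −0.01 (95% interval −0.41 to 0.38).

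NPC2, the soluble lysosomal protein that hands cholesterol to NPC1 at the lysosomal membrane, had 186, 130 and 118 CPM in shCont 1 to 3, 49.9, 116 and 111 CPM in shp16 1 to 3, and 97.1, 109 and 93.4 CPM in shp16/shATR a to c. Every shCont library was above every library of the other groups, but replicate 1 was the highest of shCont and the lowest of shp16. The log2 fold change was −0.64 ± 0.268 between shp16 and shCont (adjusted p = 0.134) and −0.53 ± 0.268 between shp16/shATR and shCont (adjusted p = 0.178, edgeR's quasi-likelihood test with Benjamini-Hochberg adjustment in each case). Without replicate 1 of shCont and shp16, the difference between shp16 and shCont shrank to −0.12 (95% interval −0.27 to 0.03). That between shp16/shATR and shCont was then −0.32 ± 0.0664 and passed (adjusted p = 0.000696, same test), as it did at −0.53 without shp16 1 alone (adjusted p = 0.0375, same test). Between shp16/shATR and shp16 the value turned from 0.11 with all libraries to −0.19 without them, where it passed (adjusted p = 0.0364, same test).

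APOE, the apolipoprotein that accepts cholesterol exported from the cell, had the largest standard errors of the 8 tested members. Its gene lies at chr19:45409011-45412650 on the plus strand (GRCh37). It had 393, 222 and 198 CPM in shCont 1 to 3, 43.0, 186 and 188 CPM in shp16 1 to 3, and 237, 244 and 170 CPM in shp16/shATR a to c. shCont 1 was 1.87 times the mean of the other shCont libraries and shp16 1 was 0.230 times that of the other shp16 libraries, and shp16/shATR overlapped both groups. The log2 fold change between shp16 and shCont was −0.97 ± 0.436 (adjusted p = 0.162, edgeR's quasi-likelihood test with Benjamini-Hochberg adjustment). Without the replicate 1 libraries it was −0.17 (95% interval −0.41 to 0.06). Between shp16/shATR and shp16 it was 0.64 ± 0.434 with all libraries and 0.21 (95% interval −0.0033 to 0.42) without those libraries, and between shp16/shATR and shCont it was −0.32 ± 0.432 and 0.04. The library with the lowest APOE and NPC2, shp16 1, also had the lowest summed melanocyte markers, and the part of that in these values was not tested.

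ABCA1 and ABCG1, the ATP-driven pumps that load cholesterol onto apolipoprotein and HDL particles, were nearly silent in these cells. ABCA1 (chr9:107543283-107690518, minus strand, GRCh37) had 1, 7 and 1 counts in shCont 1 to 3, 1, 2 and 7 counts in shp16 1 to 3, and 1, 4 and 0 counts in shp16/shATR a to c, 24 counts in all. ABCG1 had 2 counts in shp16 2 and 0 counts in each of the other 8 libraries. A total of 3 counts over a group, the limit that a count of 0 allows, corresponds to about 0.050 CPM. Neither gene passed the filter. Fitted without it, the log2 fold changes of ABCA1 lay between −0.98 and 0.15 with standard errors of 1.08 to 1.18, and differences between the groups were not detectable at this depth. These limits cover counting error only.

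The receptors were both expressed, and NR1H2 (LXR beta) exceeded NR1H3 (LXR alpha) in every library. NR1H2 FPKM was 18.4 ± 2.17 times NR1H3 FPKM in the shCont libraries, 19.5 ± 1.68 times in those of shp16 and 17.6 ± 2.44 times in those of shp16/shATR (mean ± SD, n = 3). NR1H2 had 193, 117 and 114 CPM in shCont 1 to 3, 138, 117 and 119 CPM in shp16 1 to 3, and 127, 123 and 134 CPM in shp16/shATR a to c. Apart from the high shCont 1, which was 1.68 times the mean of the other shCont libraries, the NR1H2 values of all groups overlapped. NR1H3 had 10.7, 7.55 and 7.89 CPM in shCont 1 to 3, 8.83, 6.31 and 7.12 CPM in shp16 1 to 3, and 8.82, 8.87 and 7.53 CPM in shp16/shATR a to c, again with overlap between all groups. The log2 fold changes of the receptors lay between −0.24 and 0.18 in the 3 comparisons and none passed, with 95% intervals that together ran from −0.63 to 0.58. Without the replicate 1 libraries NR1H3 was at 0.32 (95% interval 0.02 to 0.62) in shp16/shATR over shp16. NR1H2 was then at 0.14 (95% interval 0.02 to 0.25) in shp16/shATR over shCont. The other receptor intervals spanned both signs, and again none passed. ACP2, on the opposite strand, overlaps NR1H3 by 607 bases and had 4887 counts against 1501 for NR1H3, and the library kit does not mark strand, so reads of the shared stretch cannot be told apart.

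MYLIP, the ubiquitin ligase that marks the LDL receptor for degradation, was at similar levels in the 3 groups. It had 30.4, 42.5 and 39.4 CPM in shCont 1 to 3, 31.9, 43.0 and 42.0 CPM in shp16 1 to 3, and 42.3, 43.1 and 41.4 CPM in shp16/shATR a to c. Replicate 1 was the lowest library of both shCont and shp16, and all groups overlapped. Its log2 fold changes were 0.06, 0.12 and 0.18 for shp16 over shCont, shp16/shATR over shp16 and shp16/shATR over shCont, with 95% intervals of −0.26 to 0.38, −0.20 to 0.44 and −0.15 to 0.50.

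LPCAT3, which inserts polyunsaturated fatty acids into lysophospholipids, was highest in shp16. It had 26.7, 25.8 and 21.1 CPM in shCont 1 to 3, 36.2, 28.7 and 30.4 CPM in shp16 1 to 3, and 23.5, 23.9 and 26.4 CPM in shp16/shATR a to c. Every shp16 library was above every library of the other groups, and shCont and shp16/shATR overlapped. The log2 fold change was 0.37 ± 0.131 for shp16 over shCont (adjusted p = 0.0797) and −0.37 ± 0.131 for shp16/shATR over shp16 (adjusted p = 0.130, edgeR's quasi-likelihood test with Benjamini-Hochberg adjustment in each case). Both passed without shCont 1, at 0.43 and −0.37 (adjusted p = 0.0251 and 0.0356), and without replicate 1 of both shCont and shp16, at 0.33 and −0.27 (adjusted p = 0.0178 and 0.0357, same test). Between shp16/shATR and shCont the log2 fold change was 0.0024 (95% interval −0.28 to 0.29).

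**Figure D3:**
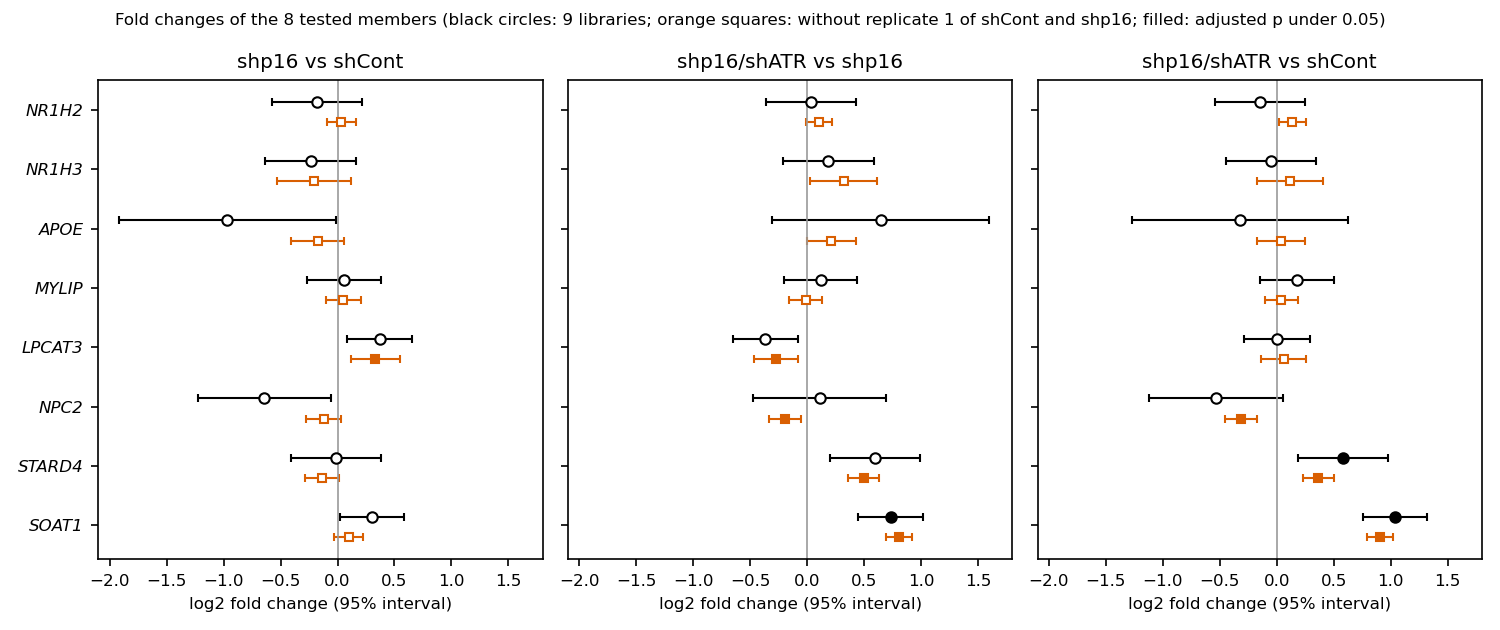
Log2 fold changes with 95% intervals of the 8 tested members in the 3 comparisons, with all 9 libraries (black circles) and without replicate 1 of shCont and shp16 (orange squares), filled where the adjusted p was under 0.05. In the comparisons of shp16/shATR with shp16 and with shCont, SOAT1 lies at 0.73 and 1.04 with all libraries and at 0.81 and 0.90 without replicate 1. Between shp16 and shCont, APOE moves from −0.97 to −0.17.

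The other genes of the pathway were followed in 8 lists of 107 genes, of which 91 were tested. Of these, 28 (30.8%, against 14.8% of all genes tested) passed in shp16 against shCont, where 20 rose and 8 fell. Adding the ATR hairpin to shp16 gave 12 (13.2%, against 6.22%) that passed, 9 up and 3 down, and shp16/shATR against shCont gave 35 (38.5%, against 23.6%), 26 up and 9 down. The lists were chosen with results of these data known, so these shares are descriptions. The median log2 fold change of the 91 genes was 0.09, 0.04 and 0.10 in this order of comparisons. All adjusted p-values of these genes come from edgeR's quasi-likelihood test with Benjamini-Hochberg adjustment over all genes tested.

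Of 20 other reported LXR targets, 12 were tested, and between shp16/shATR and shCont 6 rose and 1 fell, where 23.6% of all genes tested passed and 10.9% passed as higher. The fatty acid enzymes FASN (log2 fold change 1.13, adjusted p = 8.23e-05) and SCD (1.12, adjusted p = 0.000953) and TTC39B (1.12, adjusted p = 0.00155) rose, and APOD, a lipocalin, fell by 1.02 (adjusted p = 0.0430). FASN and TTC39B had already risen in shp16 over shCont (0.79 and 1.12), where APOD fell by 1.60, or by 1.02 without the replicate 1 libraries. The median of this list between shp16 and shCont went from 0.43 with all libraries to 0.09 without them. SCD (0.71) and PNPLA3 (0.58), a lipase of lipid droplets, rose in shp16/shATR over shp16. SREBF1, the LXR target that drives FASN and SCD, was looked up after its values were known and had log2 fold changes of −0.23, 0.12 and −0.10 in the 3 comparisons, none past the test. Of the 14 partners and coregulators of LXR, all tested, the coactivators NCOA3 (0.74) and NCOA6 (0.57) rose in shp16 over shCont, though without the replicate 1 libraries NCOA3 and NCOA6 were at 0.45 and 0.29 and still passed.

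Among the enzymes that make or clear sterol ligands, 7 of 10 were tested. CYP51A1, which acts late in cholesterol synthesis, rose in shp16 over shCont (1.34). In shp16/shATR over shCont CYP51A1 (1.59) and CYP7B1 (0.90), an oxysterol hydroxylase, rose and HSD3B7 fell by 0.54. HSD3B7 no longer passed without the replicate 1 libraries (−0.31, adjusted p = 0.0526). None of the 7 passed between shp16/shATR and shp16 with all libraries, where 6.22% of all genes tested passed. Without the replicate 1 libraries 3 of them rose, where 26.7% of all genes tested passed.

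Sterol transport was the largest list, with 21 of 23 genes tested. Between shp16/shATR and shp16, 4 rose and 1 fell: NCEH1, a cholesteryl ester hydrolase (0.87), the endocytic receptor LRP1 (0.59) and LIPA, the lysosomal acid lipase (0.43), were the 3 largest rises, and STARD3 fell by 0.53. LRP1 (1.11), NCEH1 (0.66) and CAV1, the caveolar coat protein (0.62), were also the largest of 6 rises over shCont, with NCEH1 at 0.39 without the replicate 1 libraries. In shp16 over shCont, the HDL receptor SCARB1 (0.53), LRP1 (0.51) and OSBPL6 (0.40) rose and STARD3NL and ABCA7 fell by 0.48 and 0.45. NPC1, the membrane partner of NPC2, was looked up after its values were known and had log2 fold changes of 0.09, 0.03 and 0.12, none past the test.

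In the list of neutral lipid storage, 10 of 13 genes were tested. DGAT2, which makes triglycerides, rose by 1.42 and PLIN2, a lipid droplet coat protein, by 0.73 in shp16 over shCont, and the monoglyceride lipase MGLL fell by 1.03. In shp16/shATR over shCont DGAT2 (1.76) and PLIN2 (0.71) rose while MGLL and DGAT1 fell by 0.79 and 0.72. None of the 10 passed between shp16/shATR and shp16 with all libraries, where 6.22% of all genes tested passed, against 26.7% without the replicate 1 libraries. Without the replicate 1 libraries MGLL rose (0.39, adjusted p = 0.0199) and DGAT1 fell by 0.31 (adjusted p = 0.0204) in that comparison. Of the 12 other genes listed under phospholipid remodelling, none rose and 3 fell in shp16 over shCont, where 14.8% of all genes tested passed. The falls were AGPAT4 by 0.89, MBOAT7 by 0.61 and AGPAT3 by 0.44, where LPCAT3 was at 0.37. Without the replicate 1 libraries 1 rose and 6 fell, where 32.7% of all genes tested passed. In shp16/shATR over shp16 MBOAT1 rose (0.50) and LPCAT2 fell by 0.91. Over shCont, MBOAT1 rose (0.74) and AGPAT4, LPCAT2 and AGPAT2 had the largest of 4 falls, by 0.97, 0.89 and 0.58, with AGPAT2 at −0.31 without the replicate 1 libraries.

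Among the 9 partners and targets of MYLIP, the receptor VLDLR rose in shp16 over shCont (0.60) and the ubiquitin-conjugating enzyme UBE2D1 fell by 0.53. VLDLR also rose in shp16/shATR over shCont (0.80). None of the 9 passed between shp16/shATR and shp16 with all libraries, where 6.22% of all genes tested passed. Without the replicate 1 libraries 1 rose and 3 fell, where 26.7% of all genes tested passed. Of the 6 sterol regulators, which sense sterols or answer to SREBP2, 4 rose in shp16 over shCont, led by HMGCS1 (1.39), INSIG1 (1.28) and SREBF2 (0.57). INSIG1 rose again in shp16/shATR over shp16 (1.68) and had the largest value of the 91 genes over shCont, 2.96 (adjusted p = 2.21e-08).

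**Figure D4:**
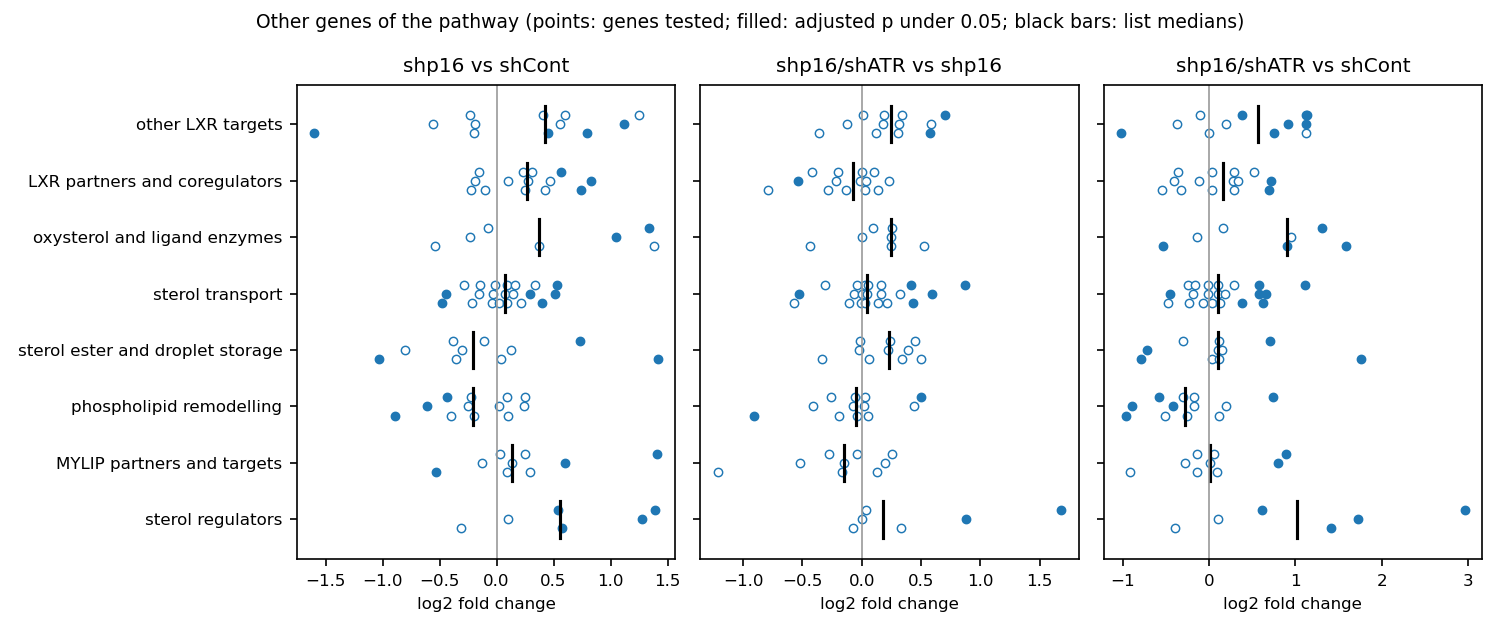
Log2 fold changes of the 91 tested genes of the 8 pathway lists in the 3 comparisons, 1 point for each gene, filled where the adjusted p was under 0.05, with a black bar at the median of each list. The sterol regulators have the highest medians of the 8 lists in 2 of the comparisons, at 0.55 between shp16 and shCont and 1.01 between shp16/shATR and shCont.

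The genes whose levels were most like those of each tested member over the 9 libraries were found by the Pearson correlation of log2 CPM among 10736 genes, as a description. The points share libraries and depth, and the 2 libraries that stand apart hold the extreme values of several members. SOAT1 was most like CCNYL1 (r = 0.995), SYPL1 (0.991) and BZW1 (0.990). STARD4 was most like SNHG14 (0.990), LPIN1 (0.983), which makes diacylglycerol, and FN1 (0.982), which encodes fibronectin. APOE was most like the lysosomal sulfatase GALNS (0.987), the protease inhibitor CST3 (0.987) and DUSP28 (0.986), and NPC2 was like RP11-395G23.3 (0.987) and B2M (0.986), a subunit of the class I antigen-presenting complex. LPCAT3 was most like TAP1 (0.973), NEDD9 (0.953) and ASNS (0.949), and MYLIP like ZNF449 (0.959), RCBTB1 (0.958) and NOM1 (0.956). NR1H2 was most like APOA1BP (0.994), RNASEH2C and RNH1 (both 0.988), and NR1H3, whose correlations were the lowest of the 8, like GPN1 (0.915), SYMPK (0.913) and AKAP8L (0.910).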

How the data were processed

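RNA from 9 libraries of SKMEL28 cells (3 groups of 3) was analysed. The authors deposited raw read counts per gene and FPKM values per gene, both for 48162 genes. Per the labels, STAR 2.6.1 and DESeq2 2 were used and the build is GRCh38, whereas the deposited gene coordinates are those of GRCh37, so the counter and annotation are not given in the sources used here. The library kit (NEBNext Ultra II) does not mark strand, so overlapping genes on opposite strands cannot be told apart. The 3 shp16/shATR count columns share a name and are called libraries a to c, and the FPKM columns carry numbers.

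Counts were normalized by TMM and tested with edgeR 4.0.16 (quasi-likelihood test, filterByExpr, all 9 libraries, group means only) in R 4.3.3, with Benjamini-Hochberg adjustment over 15776 genes and a threshold of 0.05. The script was checked on simulated counts. Fold changes are log2, intervals are 95%, and errors are the SE of the fit or the SD over 3 libraries. FPKM was used to compare levels between genes. Alternatives used DESeq2 1.42.0, limma 3.58.1 on log2(FPKM + 1) or log2(FPKM + 0.1), other normalizations and filters, summed libraries and each library left out. Leaving out replicate 1 of both shCont and shp16 was added after the data were seen. Of symbols found on several genes (182), the row with the most counts was taken. Samples with the same replicate number correlated at −0.303 to 0.289 in their deviations from the group means, over 0.1 in 2 of 9 pairs, so the numbers were not taken to pair samples. shp16 2 and 3 were the closest pair of libraries (median chi-square per gene 0.816, mean 1.96) and were kept as 2 libraries.

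The members and gene lists were chosen with earlier results of these data known. All members and CDKN2A and ATR are named. From each list and comparison, up to 3 genes with the largest rise and 3 with the largest fall are named among those with an adjusted p under 0.05 and a mean CPM of at least 1. For likeness, the 3 genes with the highest correlation and a mean CPM of at least 5 are named. Promoters are RefSeq sequences of GRCh38.p14. Some genes that these rules name are not reported here.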

Additional observations from a re-analysis of the deposited data

How the results depend on the processing

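SOAT1 passed in both comparisons with shp16/shATR in every alternative that gave a value, whereas the other member calls depended on the settings and on replicate 1 of shCont and of shp16. The biological coefficient of variation was 0.149 with all libraries and 0.0903 without shCont 1. Leaving out single libraries gave 0 to 1, 1 to 3 and 1 to 3 members called for shp16 vs shCont, shp16/shATR vs shp16 and shp16/shATR vs shCont, 17 to 40, 2 to 24 and 25 to 40 other pathway genes, and member medians of −0.108 to −0.0718, 0.121 to 0.249 and −0.108 to 0.0902. Of all genes tested, 8.29 to 25.9%, 1.81 to 19.9% and 14.5 to 33.3% passed over these fits, highest in each comparison without shCont 1. The 24 pathway genes, the median of 0.0902 and the highest member counts of the first and middle comparisons came without shCont 1. The 3 members of the last came without shp16 1, where 24.2% of all genes tested passed. Without shCont 1 and shp16 1 together, 1, 4 and 3 members and 46 and 34 other pathway genes (first and middle comparison) were called. In these fits 32.7%, 26.7% and 44.3% of all genes tested passed, and the member median for shp16/shATR vs shCont was 0.0873.

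For shp16 vs shCont, 2 members, APOE and NPC2, were called without a filter on low counts (9.93% of all genes tested passed). Of the other pathway genes, 16 passed with only the 2 groups compared (7.83% of all genes tested) and 14 at an adjusted p under 0.01. With the replicate block in edgeR, 7 passed (2.79% of all genes tested). For shp16/shATR vs shp16, 2 members were called by DESeq2 (9.77% of all genes tested passed). There were 3 each without a filter (4.39%) or with only the 2 groups compared (18.9%). Other pathway genes numbered 22 with only the 2 groups and 3 with shp16 2 and 3 summed (2.46% of all genes tested). There were 2 each at an adjusted p under 0.01 and with the replicate block in limma (3.05% with the block). For shp16/shATR vs shCont, 1 member was called with library size only (22.3% of all genes tested passed). The same count came with only the 2 groups compared (19.7%) and with summed libraries (20.0%). In limma 1 member was called on log2(FPKM + 1) (22.7%), on log2(FPKM + 0.1) (21.8%) and with the replicate block (18.9%). At an adjusted p under 0.01 there was also 1 member.

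Across all genes, 423 genes were called in edgeR for shp16 vs shCont with the replicate block, fitted on these 2 groups alone, against 1186 from the same 2 groups without it and 2339 from all 9 libraries, and 3 of 9 libraries correlated best with their own number. On counts the block was fitted for shCont and shp16 only, and 7 other pathway genes and 0 members passed.

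Some log2 values turned sign, and not all of them were near 0. With all libraries APOE was at −0.32 in shp16/shATR vs shCont and NR1H2 at −0.18 in shp16 vs shCont. STARD4 in shp16 vs shCont was 0.0036 without a filter, 0.0205 with the edgeR replicate block, 0.0095 with limma (log2(FPKM + 1), with or without the block) and 0.0129 (log2(FPKM + 0.1)). With summed libraries, MYLIP was −0.0030 (shp16 vs shCont) and NR1H2 −0.0072 (shp16/shATR vs shp16), and LPCAT3 in shp16/shATR vs shCont was −0.0195 with upper-quartile normalization. Without both replicate 1 libraries, NR1H2 was 0.0320 in shp16 vs shCont, MYLIP −0.0129 and NPC2 −0.19 in shp16/shATR vs shp16, and NR1H2, NR1H3 and APOE 0.14, 0.12 and 0.0374 in shp16/shATR vs shCont. Over single libraries left out, values in shp16 vs shCont ran from −0.314 to 0.107 (NR1H2), −0.0775 to 0.186 (MYLIP) and −0.228 to 0.118 (STARD4). In shp16/shATR vs shp16 they ran from −0.0144 to 0.110 (NR1H2), −0.00895 to 0.193 (MYLIP) and −0.192 to 0.305 (NPC2), and in shp16/shATR vs shCont from −0.284 to 0.141 (NR1H2), −0.147 to 0.118 (NR1H3), −0.506 to 0.0385 (APOE) and −0.0956 to 0.0624 (LPCAT3). The cause of these changes was not tested. Depth limited ABCA1 and ABCG1, and the standard errors that fits without a filter or by DESeq2 gave for them were above 1 on the log2 scale.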
